A study of Bos taurus with 30 samples.

Results

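The genes described here are 7 messengers, of which all but PF4 are known for their link to neutrophils. They are the chemokines CXCL8 (Entrez Gene 280828), CXCL2 (281734 in the array's annotation), CXCL5 (281735) and PF4 (507790), and the calcium-binding proteins S100A8 (616818), S100A9 (532569) and S100A12 (282467). They were chosen by gene symbol, and all 7 were present, on 8 of the 24016 probe sets tested. S100A9 had 2 probe sets and each of the others 1. The array's annotation named 9155 genes in all.

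RNA came from the corpus luteum, a short-lived progesterone-producing gland of the ovary. The tissue of 30 Angus crossbred heifers was taken on day 4 of the estrous cycle, when the gland is young, or on day 11, when it is mature. Heifers received prostaglandin F2α (PGF2α), the hormone that ends the life of a mature gland, and gave tissue 4 or 24 h later, while the 0 h controls of each day received saline. This made 6 groups of 5 animals with 1 Affymetrix GeneChip Bovine Genome Array per animal. The comparisons ask how the response to PGF2α differs between the early and the mid-cycle gland.

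CXC chemokines are small secreted proteins that guide white blood cells. CXCL8, CXCL2 and CXCL5 belong to the branch that attracts neutrophils through the receptors CXCR1 and CXCR2, whereas PF4 (also called CXCL4) is best known from platelet granules and does not belong to that branch. S100A8, S100A9 and S100A12 are abundant in neutrophils and are also made by monocytes and young macrophages, and outside the cell they act on receptors such as TLR4 and AGER. Neutrophils and macrophages are known to enter the regressing corpus luteum. In the RefSeq annotation of assembly ARS-UCD2.0 the members lie in 2 clusters. On chromosome 3, S100A8, S100A12 and S100A9 follow each other with no protein-coding gene between them. On chromosome 6 the order of protein-coding genes is CXCL8, LOC534181, CXCL5, PPBP, PF4 and CXCL2.

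Values are log2 signals of a probe set, so a step of 1 is a doubling of the signal. The deposited values kept no count of molecules, and the number of arrays limits the precision. Array medians ran from 6.01 to 6.16. The mean of 9 luteal steroidogenic marker genes was 10.65 to 12.32 on every array, which bears out the labelled tissue. In whole tissue, fewer cells of a type and less RNA per cell cannot be told apart. The 4 h and 24 h comparisons of a day share the same 0 h arrays. Day 11, 4 h replicate 1 stood apart: the 3′ minus 5′ difference of its EF1A control probe sets was -1.40, against -2.46 to -2.28 on the other arrays of its group. The first principal component (36.5% of the variance) placed replicate 1 of day 4 at 24 h, at -45.7, within the range of the 0 h arrays of that day (-50.7 to -42.1). Leading counts are therefore also given without these arrays, a choice made after seeing the data.

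At 4 h the chemokines CXCL8, CXCL2 and CXCL5 and the S100 protein S100A12 rose on both days, and S100A8 and S100A9 also rose on day 11. By 24 h on day 4, 0 of the 7 genes passed the test against 0 h, but on day 11 6 of 7 were higher than at 0 h and PF4 had joined them. A gene was called at an adjusted p under 0.05 in limma, with the Benjamini-Hochberg adjustment over all probe sets tested. On day 4, 4 of 7 genes rose at 4 h, where 2.69% of all probe sets rose, and on day 11, 6 of 7 rose, where 8.02% did. At 24 h on day 4 the count was 0 of 7, with 5.16% of all probe sets called in either direction, and 0 of 7 had an unadjusted p under 0.05. At 24 h on day 11, 6 of 7 were higher, against 14.3% of all probe sets. The median change over the 7 genes was 1.94 and 2.35 at 4 h on day 4 and day 11, and -0.14 and 3.04 at 24 h, while the medians over all probe sets lay between -0.02 and 0.01. Without both arrays that stood apart, the 4 counts were 4, 4, 0 and 7.

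The fit also tested whether the change itself differed between the days. From 0 to 24 h the change was larger on day 11 for 6 of 7 genes, against 10.6% of all probe sets, and S100A8 was the exception. For the 4 h change 0 of 7 genes differed between the days, against 1.10% of all probe sets, and 0 of 7 had an unadjusted p under 0.05 on the probe set that represents the gene. The 4 h intervals are wide, however: for CXCL2 the 95% interval of the difference ran from -3.59 to 1.19.

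**Figure D1:**
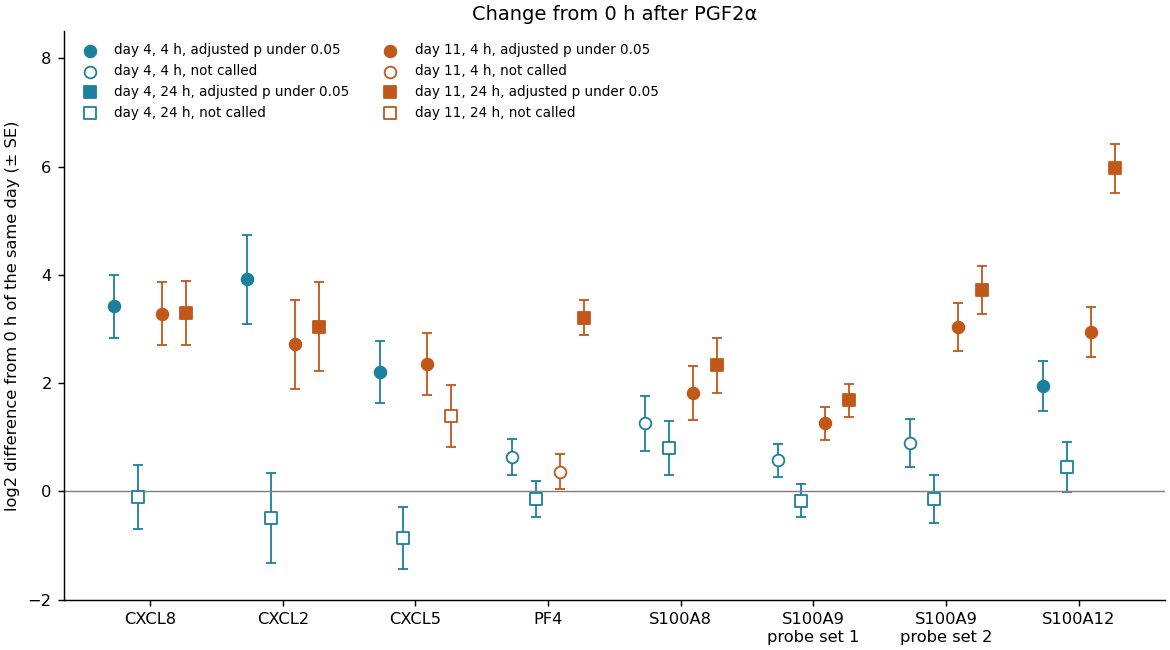
Difference in log2 signal from 0 h of the same day (± SE from the limma fit, 5 arrays per group) for the 8 probe sets; circles are 4 h, squares 24 h, and filled symbols have an adjusted p under 0.05. The day 4 squares lie near 0, from -0.87 for CXCL5 to 0.80 for S100A8, whereas the day 11 squares run from 1.40 for CXCL5 to 5.97 for S100A12.

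CXCL8, the interleukin-8 that draws in and activates neutrophils, rose about as much on both days at 4 h and stayed up at 24 h on day 11. On day 4 its log2 signal at 0 h was 5.45, 4.63, 5.68, 5.02 and 4.81, and at 4 h it was 9.44, 10.03, 8.02, 5.77 and 9.41. At 24 h it was back at 5.50, 4.15, 5.62, 5.27 and 4.50. All day 4 arrays at 4 h thus lay above all at 0 h and at 24 h, although replicate 4 did so by little. On day 11 the 0 h signals were 4.03, 3.99, 4.54, 4.08 and 5.92, and those at 4 h were 8.69, 9.20, 7.70, 6.03 and 7.32. At 24 h they were 8.13, 7.29, 7.30, 8.43 and 7.85. On day 11 both later groups lay wholly above the 0 h group, and the 24 h arrays were the more alike, with an SD of 0.50 against 1.24 at 4 h.

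The rise of CXCL8 at 4 h was 3.42 ± 0.58 (SE, 10.7-fold, adjusted p = 0.0005) on day 4 and 3.28 ± 0.58 (9.71-fold, adjusted p = 0.00016) on day 11. The difference between these rises was -0.14, with a 95% interval from -1.83 to 1.56. From 4 to 24 h CXCL8 fell by 3.52 on day 4 (adjusted p = 0.00011), but on day 11 the difference was 0.01 (adjusted p = 0.99, 95% interval -1.18 to 1.21). Its 24 h change was larger on day 11 by 3.40 ± 0.83 (adjusted p = 0.0029). The order of the group means was 8.53 at 4 h on day 4, then 7.80 and 7.79 at 24 and 4 h on day 11, then 5.11, 5.01 and 4.51 at 0 h and 24 h on day 4 and at 0 h on day 11. Neighbours within the upper and within the lower 3 groups overlapped. At 0 h the probe set stood at percentile 38.3 of all probe sets on day 4 and 30.4 on day 11, so a part of its signal can be background and the size of the fold is uncertain.

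CXCL2, a neutrophil attractant also known as MIP-2, followed CXCL8 closely but with a larger spread among animals. On day 4 it went from 3.45, 3.00, 4.33, 2.61 and 3.12 at 0 h to 8.40, 8.87, 6.60, 4.26 and 7.95 at 4 h. By 24 h it was 3.39, 2.33, 2.59, 2.95 and 2.77. The 4 h array of replicate 4 lay below the highest 0 h array, and the other 4 were far above it. On day 11 the 0 h signals were 2.53, 2.52, 3.20, 2.65 and 4.06, and those at 4 h were 7.64, 8.70, 4.82, 3.13 and 4.24. At 24 h they were 4.51, 5.68, 5.48, 8.27 and 6.24. On day 11 at 4 h, 2 of the 5 animals were high and replicate 4 was inside the 0 h range, whereas all 5 were above that range at 24 h.

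CXCL2 rose at 4 h by 3.92 ± 0.83 (15.1-fold, adjusted p = 0.0043) on day 4 and by 2.71 ± 0.83 (6.56-fold, adjusted p = 0.02) on day 11. The day 11 call rested on 2 animals: the adjusted p was 0.073 without replicate 1 and 0.081 without replicate 2 at 4 h. It was also lost with array weights (0.056) and in a fit to the compared arrays alone (0.073, and 0.086 with the replicate number as a block). On day 4 it fell by 4.41 from 4 to 24 h (adjusted p = 0.00042), and on day 11 it was 3.04 ± 0.83 higher at 24 h than at 0 h (adjusted p = 0.0051). Compared with day 4, its 24 h change on day 11 was larger by 3.54 ± 1.17 (adjusted p = 0.028). Leaving out 0 h replicate 3 of day 4 (0.054) or 24 h replicate 4 of day 11 (0.065) ended that call. The probe set was among the dimmest before PGF2α, at percentiles 14.6 and 8.97 of all probe sets on day 4 and day 11, so its folds are the least certain of the 7. The annotation's Entrez number for CXCL2 differs from that of RefSeq (281214), to which the probe set was matched by its accession.

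CXCL5, another CXCR2 ligand, rose at 4 h on both days and was lower again, or in between, at 24 h. On day 4 the 0 h signals were 6.14, 6.90, 5.94, 5.90 and 5.33, the 4 h signals 8.75, 9.39, 8.08, 6.12 and 8.89, and the 24 h signals 6.12, 3.96, 4.61, 5.69 and 5.50. On day 11 they were 4.90, 5.53, 5.21, 4.46 and 5.68 at 0 h, 9.35, 8.54, 6.80, 5.46 and 7.40 at 4 h, and 7.40, 6.47, 5.73, 7.22 and 5.94 at 24 h. On each day replicate 4 at 4 h overlapped the 0 h group and the other 4 did not. At 24 h on day 11 every array was above the highest 0 h array, the closest by less than 0.1.

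CXCL5 rose at 4 h by 2.21 ± 0.58 (adjusted p = 0.022) on day 4 and by 2.35 ± 0.58 (adjusted p = 0.004) on day 11. The day 4 call had an adjusted p of 0.05 to 0.074 without any one of 6 arrays (0 h replicates 3, 4 and 5, and 4 h replicates 1, 2 and 5). From 4 to 24 h it fell by 3.07 on day 4 (adjusted p = 0.00043), while the day 11 difference of -0.96 was not called (adjusted p = 0.27). On day 11 the difference from 0 h at 24 h, 1.40 ± 0.58, was not called (adjusted p = 0.068), but it was in a fit to those arrays alone (0.0073) and without both arrays that stood apart (0.043). The gap between the days in the 24 h change, 2.26 ± 0.81, only just passed (adjusted p = 0.044). It was 0.06 with a variance trend and robust moderation, and 0.056 to 0.097 without any one of 12 arrays: at 0 h replicates 1, 3 and 4 of day 11 and 1 to 4 of day 4, and at 24 h replicates 1, 2 and 4 of day 11 and 2 and 3 of day 4.

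PF4, platelet factor 4, departed from the other chemokines: it did not pass the test at 4 h on either day and rose at 24 h on day 11. On day 11 its signals were 4.58, 4.51, 3.99, 4.15 and 4.91 at 0 h, 4.51, 5.24, 5.51, 4.46 and 4.23 at 4 h, and 8.16, 7.41, 7.29, 8.24 and 7.09 at 24 h. On day 4 they were 5.96, 5.27, 5.72, 5.17 and 5.13 at 0 h, 6.57, 6.30, 5.50, 5.40 and 6.66 at 4 h, and 6.06, 4.05, 5.74, 5.66 and 5.04 at 24 h. The 5 arrays of day 11 at 24 h lay above the other 25, and the other 5 groups overlapped with at least one neighbour.

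PF4 was 3.21 ± 0.33 higher at 24 h than at 0 h on day 11 (9.25-fold, adjusted p = 9.7e-09) and 2.85 ± 0.33 higher than at 4 h (adjusted p = 1.4e-07). Its 4 h differences from 0 h were 0.64 (adjusted p = 0.38) on day 4 and 0.36 (adjusted p = 0.52) on day 11. Its 24 h change on day 11 exceeded that on day 4 by 3.35 ± 0.46 (adjusted p = 3.6e-06). Before PGF2α the order of the days was the opposite, with PF4 lower on day 11 by 1.02 ± 0.33 (adjusted p = 0.015).

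**Figure D2:**
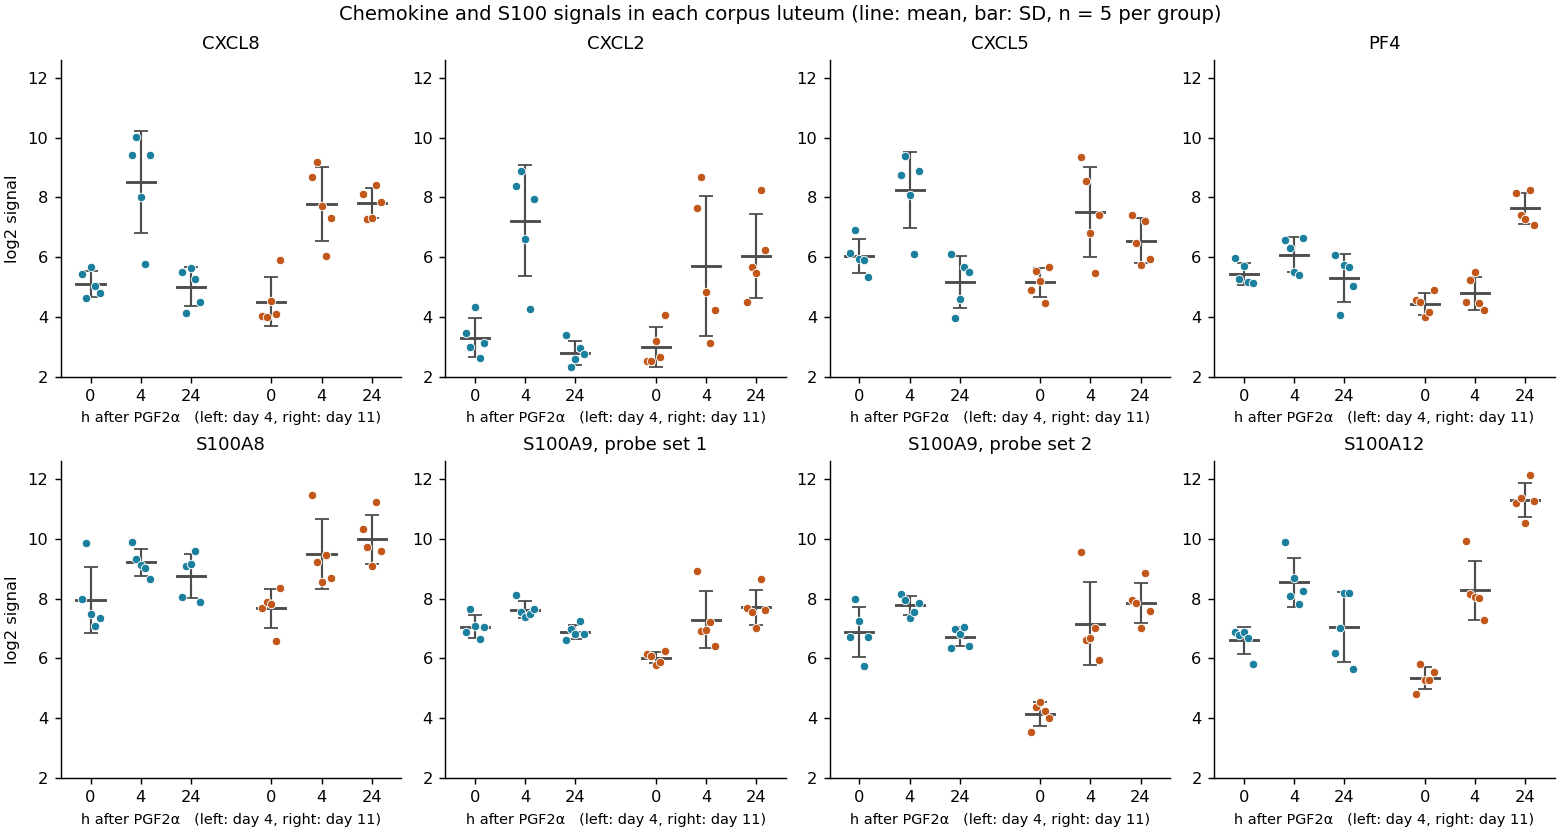
Log2 signal of each of the 8 probe sets in each corpus luteum, with day 4 (left) and day 11 (right) at 0, 4 and 24 h after PGF2α; points are animals, the line is the mean and the bar the SD of 5. PF4 at 24 h on day 11 (7.09 to 8.24) and S100A12 in the same group (10.53 to 12.15) stand clear of all other groups, while CXCL8, CXCL2 and CXCL5 spread widely at 4 h.

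S100A8, which with S100A9 forms calprotectin, was already at a high signal before PGF2α and rose on day 11. Its signals on day 11 were 7.70, 7.89, 7.80, 6.59 and 8.37 at 0 h, 11.47, 9.23, 8.57, 9.45 and 8.70 at 4 h, and 10.31, 9.71, 9.09, 11.24 and 9.59 at 24 h. On day 4 they were 8.0, 9.85, 7.47, 7.08 and 7.36 at 0 h, 9.90, 9.32, 9.14, 9.01 and 8.67 at 4 h, and 8.06, 9.09, 9.16, 9.59 and 7.87 at 24 h. On day 11 both later groups lay above the 0 h group. On day 4 the 0 h and 4 h groups overlapped only through the 0 h array of replicate 2, which was near the top of the 4 h range. The 24 h group of day 4, from 7.87 to 9.59, overlapped both, also without that array.

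S100A8 rose on day 11 by 1.82 ± 0.51 (3.52-fold, adjusted p = 0.011) at 4 h and by 2.32 ± 0.51 (5.01-fold, adjusted p = 0.00065) at 24 h. Without day 11, 4 h replicate 1, its highest array, the 4 h rise was 1.32 (adjusted p = 0.051), and with array weights it was 1.42 (0.071). On day 4 the 4 h difference was 1.25 ± 0.51 (adjusted p = 0.2), and 1.73 (0.033) without 0 h replicate 2. The day 11 minus day 4 difference of the 24 h change was 1.52, with a 95% interval from 0.06 to 2.99 and an adjusted p of 0.14.

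S100A9, the partner of S100A8 in calprotectin, was lower on day 11 than on day 4 before PGF2α, and then rose on day 11 at 4 h and 24 h. On the first probe set the day 11 signals were 6.14, 6.09, 5.78, 5.86 and 6.25 at 0 h, 8.91, 6.91, 6.96, 7.22 and 6.42 at 4 h, and 7.68, 7.54, 7.02, 8.67 and 7.61 at 24 h. On the second they were 3.53, 4.38, 4.52, 4.24 and 4.01 at 0 h, 9.57, 6.62, 6.68, 7.0 and 5.95 at 4 h, and 7.96, 7.86, 7.02, 8.86 and 7.59 at 24 h. On both probe sets every day 11 array at 4 or 24 h was above all 0 h arrays of that day, and replicate 1 was the highest at 4 h. On day 4 the group means were 7.06, 7.63 and 6.88 at 0, 4 and 24 h on the first probe set and 6.88, 7.78 and 6.73 on the second.

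The probe sets of S100A9 gave the same calls in these comparisons but differed in size. On day 11 the rise was 1.26 ± 0.30 (adjusted p = 0.0036) and 3.03 ± 0.44 (adjusted p = 1.2e-05) at 4 h, and 1.68 ± 0.30 (adjusted p = 7.3e-05) and 3.72 ± 0.44 (adjusted p = 1.4e-07) at 24 h. Without day 11, 4 h replicate 1 the 4 h rises were 0.85 and 2.43 and stayed called, but S100A9 was then also higher at 24 h than at 4 h on day 11 (0.82 and 1.30, adjusted p = 0.0092 and 0.0047). For the 24 h change day 11 exceeded day 4 by 1.85 ± 0.43 (adjusted p = 0.0019) and 3.87 ± 0.63 (adjusted p = 3.1e-05). For the 4 h change the second probe set differed between the days by 2.13 ± 0.63 with an unadjusted p of 0.0021, which the adjustment did not keep (adjusted p = 0.098).

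S100A12, also called calgranulin C, showed the largest change of the 7 genes in the comparison of 24 h with 0 h on day 11, and it kept rising between 4 and 24 h there. On day 11 its signals were 4.79, 5.81, 5.26, 5.28 and 5.53 at 0 h, 9.93, 8.14, 8.05, 8.02 and 7.27 at 4 h, and 11.19, 11.36, 10.53, 12.15 and 11.28 at 24 h. The 3 day 11 groups did not overlap. On day 4 they were 6.87, 6.77, 6.87, 6.67 and 5.82 at 0 h, 9.90, 8.07, 8.68, 7.82 and 8.25 at 4 h, and 6.19, 7.01, 8.19, 8.20 and 5.63 at 24 h. All day 4 arrays at 4 h were above those at 0 h, and at 24 h the animals ranged from below the 0 h group into the 4 h group.

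S100A12 rose on day 11 by 2.95 ± 0.46 (7.72-fold, adjusted p = 2.9e-05) at 4 h and by 5.97 ± 0.46 (62.5-fold, adjusted p = 5.4e-11) at 24 h, a further 3.02 ± 0.46 above 4 h (adjusted p = 1.1e-05). At 24 h its probe set stood at percentile 97.8 of all probe sets, against 40.4 at 0 h. On day 4 it rose by 1.94 ± 0.46 at 4 h (3.84-fold, adjusted p = 0.011, and 0.056 without 4 h replicate 1) and was 0.45 ± 0.46 from 0 h at 24 h (adjusted p = 0.72). It fell by 1.50 from 4 to 24 h on day 4 (adjusted p = 0.025). That call was lost without 4 h replicate 1 (0.1), 24 h replicate 1 (0.068) or 24 h replicate 5 (0.093), and in a fit to those arrays alone (0.081). Day 11 exceeded day 4 in the 24 h change by 5.52 ± 0.65 (adjusted p = 3e-07).

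Between 4 and 24 h different members were called on the 2 days, but the 4 to 24 h change itself was not compared between the days. On day 4, CXCL8, CXCL2, CXCL5 and S100A12 fell, 4 of 7 genes against 7.24% of all probe sets, and 6 of 7 fell without both arrays that stood apart, with PF4 (fell by 0.97, adjusted p = 0.049) and S100A9 (0.041) added. On day 11, PF4 and S100A12 rose, 2 of 7 against 12.5% of all probe sets, while the chemokines CXCL8 and CXCL2 and the S100 proteins S100A8 and S100A9 did not pass the test. In the groups' own ranges, 2 of 7 genes on day 4 (CXCL8 and S100A12) lay wholly above 0 h at 4 h, where 3.18% of all probe sets did. On day 11, 4 of 7 (CXCL8 and the S100 proteins) did so, where 4.98% of all probe sets did.

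Set side by side at the same time, some genes were lower on day 11 at 0 h, only PF4 was at 4 h, and most were higher on day 11 at 24 h. At 0 h, PF4, S100A9 and S100A12 were lower on day 11, 3 of 7 genes, where 17.7% of all probe sets were lower. S100A12 was lower by 1.26 ± 0.46 (adjusted p = 0.033, and 0.055 to 0.081 without any one of 7 arrays), and S100A9 by 1.03 ± 0.30 (adjusted p = 0.0085) and 2.74 ± 0.44 (adjusted p = 1.6e-05) on its probe sets. The 7 arrays are 0 h replicates 1, 3 and 4 of day 11 and 1 to 4 of day 4. At 4 h PF4 alone was called, lower on day 11 by 1.30 ± 0.33 (adjusted p = 0.0028). With 1 of 7 against 17.7% of all probe sets, the members gave no more calls there than probe sets at large. Single arrays mattered there: S100A9 was lower too (0.76 and 1.22 below day 4, adjusted p = 0.013 and 0.006) without day 11, 4 h replicate 1, CXCL8 and CXCL2 (0.029 and 0.032) without day 4, 4 h replicate 4, and CXCL2 (0.028) without day 11, 4 h replicate 2.

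At 24 h, 5 of 7 genes were higher on day 11, against 15.9% of all probe sets. S100A12 was 4.26 ± 0.46 higher (19.1-fold, adjusted p = 1.9e-08), CXCL2 3.23 ± 0.83 (adjusted p = 0.0026), CXCL8 2.80 ± 0.58 (adjusted p = 0.00034) and PF4 2.33 ± 0.33 (adjusted p = 1.5e-06). S100A9 was 0.82 ± 0.30 and 1.13 ± 0.44 higher (adjusted p = 0.036 and 0.048). On the first probe set this call was lost without replicate 1 or 4 of day 11 or 1, 3 or 5 of day 4, and on the second without any array but replicate 3 of day 11 and 4 of day 4, with an adjusted p of up to 0.15. With a variance trend and robust moderation it was 0.061 on the second. CXCL5 and S100A8 were 1.37 and 1.24 higher without passing the test (adjusted p = 0.065 and 0.059). Both were called with array weights (0.03 and 0.034), in a fit to the compared arrays alone (0.026 and 0.037) and without replicate 3 of day 11 (0.046 and 0.034). CXCL5 was also called without day 4 replicate 1 (0.043) and S100A8 without day 4 replicate 4 (0.035).

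Within the 4 h groups the animals varied in a patterned way, and the neutrophil-attracting chemokines varied together. To describe this, each animal's deviation from its group mean was taken and correlated over the 10 animals, which share their arrays. CXCL8 and CXCL2 had a Pearson r of 0.94 (Spearman rho 0.90), CXCL8 and CXCL5 0.93 (0.87), and CXCL2 and CXCL5 0.93 (0.92). Without the 2 animals farthest from the median of the gene named first, r was 0.92, 0.79 and 0.94. The lowest animal for all 3 genes was replicate 4 in both groups, and on day 4 its CXCL8 signal was 2.76 below the group mean.

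S100A8 and S100A9 also varied together at 4 h. S100A8 and S100A9 had an r of 0.94 (rho 0.75), which was 0.56 without the 2 farthest animals, and S100A8 and S100A12 had 0.86 (0.53), which was 0.31 without them. Replicate 1 of day 11 was the farthest out, at 1.99 above its group mean for S100A8. Across the classes, CXCL8 had an r of 0.27, 0.28 and 0.41 with S100A8, S100A9 and S100A12, CXCL2 had 0.42, 0.40 and 0.51, and CXCL5 had 0.48, 0.45 and 0.51. Without the 2 farthest animals these were 0.40, 0.39 and 0.27 for CXCL8, 0.61, 0.65 and 0.58 for CXCL2 and 0.76, 0.69 and 0.49 for CXCL5, so that some were then above the 0.56 between S100A8 and S100A9. On that array the mean of 18 neutrophil markers was 6.37, against 5.80 to 6.15 on the other 4 arrays of the group, that of 5 platelet markers was 7.40, against 6.45 to 7.06, and that of 7 erythroid markers was 4.19, against 3.89 to 4.07. Their part in the S100 values of that animal was not tested.

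**Figure D3:**
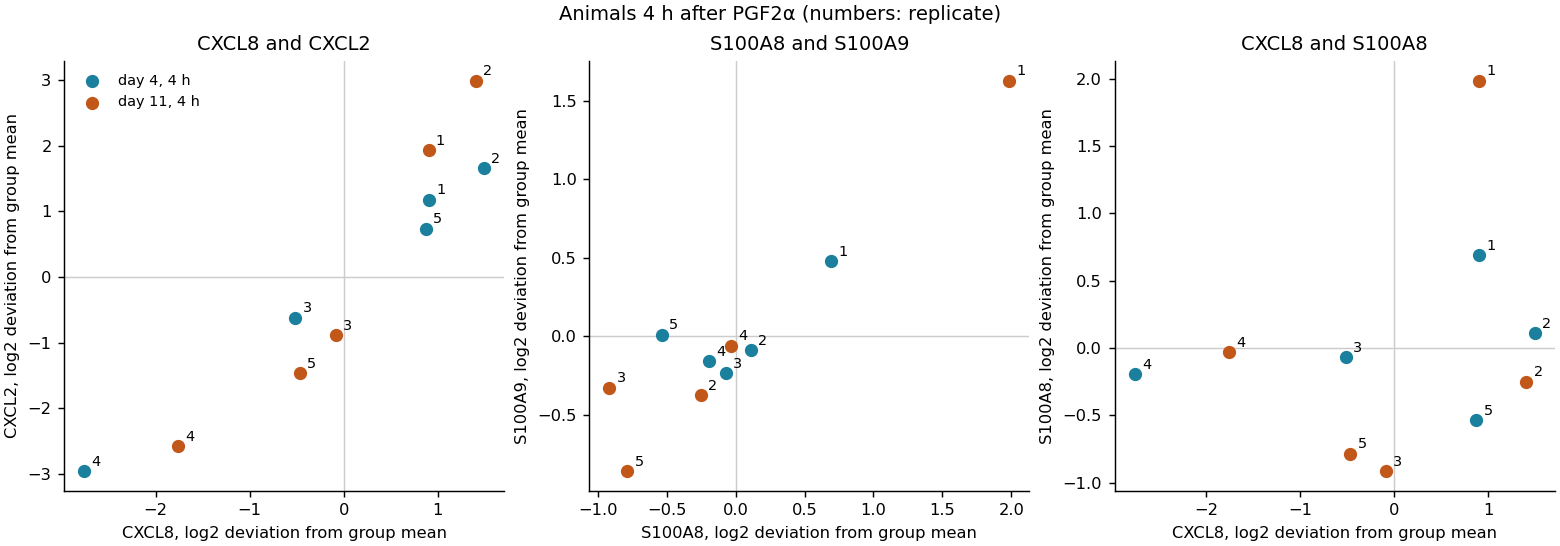
Deviation of each animal from its group mean (log2 units) at 4 h after PGF2α, for CXCL8 and CXCL2, S100A8 and S100A9 (first probe set), and CXCL8 and S100A8; each point is 1 of 10 animals, numbered by replicate. The first panel forms a line with both replicates 4 at its low end, the second is stretched by day 11 replicate 1, and the third is a looser cloud (r of 0.94, 0.94 and 0.27).

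Many of the other members of the CXC chemokine pathway rose with PGF2α, with the most calls at 4 h on day 11. The list held ligands, receptors and cytokines, and 18 of its 24 genes were measured. At 4 h, 8 of 18 rose on day 4 and 12 of 18 on day 11, where 2.69% and 8.02% of all probe sets rose, and 0 fell. At 24 h, 0 of 18 were called on day 4, against 5.16% of all probe sets, and 8 of 18 were higher on day 11, against 14.3%. From 4 to 24 h, 8 of 18 fell on day 4, where 7.24% of all probe sets fell. On day 11 5 fell and 2 rose over that interval (median -0.45), where 12.5% of all probe sets rose. The share of all probe sets that fell over that interval on day 11 is not given here. The list medians at 4 h were 0.80 and 1.10, while the medians over all named genes were -0.02 and -0.04. The 4 h change of these genes differed between the days for 0 of 18, against 1.10% of all probe sets.

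Among the ligands, GRO1, which RefSeq also lists as CXCL1, rose at 4 h by 2.04 ± 0.45 (adjusted p = 0.0069) on day 4 and by 2.00 ± 0.45 (adjusted p = 0.0021) on day 11. It was not called at 24 h on day 11 (0.68 ± 0.45, adjusted p = 0.3), where CXCL8 and CXCL2 stayed up. GRO1 had 4 probe sets, of which 1 did give a rise there (2.41 ± 0.72, adjusted p = 0.011). GRO1, CXCL2 and CXCL3 are close relatives, and whether their probe sets detect each other's RNA was not tested. CXCL10, an interferon-induced ligand, rose by 2.12 on day 11 at 4 h (adjusted p = 3e-06). CXCL14, a ligand made by many tissues, was 1.78 higher at 24 h on day 11 (adjusted p = 0.0017).

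IL1B, IL1A and IL6, cytokines of the same list, rose at 4 h on both days. Whether they induced the ligands was not tested. TNF, IL17A and CSF3, also listed, are not described here. IL1B rose by 3.69 ± 0.55 on day 4 and by 3.68 ± 0.55 on day 11 (adjusted p = 8.3e-05 and 1.7e-05), and IL1A by 2.43 and 1.78 (adjusted p = 0.00076 and 0.0039). IL6, which like IL1B signals acute inflammation, rose by 2.14 and 2.09 (adjusted p = 0.011 and 0.0038). On day 4 all 3 fell again by 24 h, IL1B by 3.61 (adjusted p = 4.1e-05). The receptor CXCR1, carried by neutrophils, rose at 4 h by 1.88 (adjusted p = 0.0034) on day 4 and by 1.27 (adjusted p = 0.02) on day 11. CXCR4, the receptor for CXCL12, was 1.56 higher at 24 h on day 11 (adjusted p = 2.5e-05).

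Of the S100 proteins outside the calgranulin trio, 5 changed at 24 h on day 11, 2 upward and 3 downward, and 1 at each other time on each day. Of 15 listed, 11 were measured. Among all probe sets 2.69% rose at 4 h on day 4, 8.02% at 4 h on day 11 and 14.3% at 24 h on day 11. At 24 h on day 4, 5.16% were called in either direction. Counts of 1 or 2 of 11 are too small to be told apart from these shares. The share of all probe sets that fell at 24 h on day 11 is not given here. At 4 h 1 rose on each day, S100B by 0.72 (adjusted p = 0.043) on day 4 and S100A4 by 1.37 (adjusted p = 0.0003) on day 11. At 24 h on day 11, S100A4, which marks motile and inflammatory cells, rose by 2.59 ± 0.26 (adjusted p = 6.1e-09) and S100A13 by 1.04 (adjusted p = 0.00032), while S100A14, S100A10 and S100A16 fell by 0.70, 0.62 and 0.42. On day 4 at 24 h S100B, a gene of glia and other cells, was 1.21 higher (adjusted p = 0.0015).

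Receptors and signal carriers of the calgranulins rose in part, at most 7 of 14 in a comparison with 0 h. Of 15 genes listed 14 were measured, and 5 rose at 4 h on day 4, 4 at 4 h on day 11, 0 at 24 h on day 4 and 7 at 24 h on day 11, while 0 fell. Of all probe sets 2.69% and 8.02% rose at 4 h on day 4 and day 11, and 14.3% at 24 h on day 11. At 24 h on day 11 CD14, the co-receptor of TLR4, rose by 2.60 ± 0.26 (adjusted p = 9.9e-09), the scavenger receptor CD36 by 2.33 ± 0.34 (adjusted p = 4.4e-06), TLR2 by 1.88 (adjusted p = 1.3e-07) and TLR4 by 1.16 (adjusted p = 3e-05). The early genes of the list were NFKBIA, the inhibitor of NF-kB that NF-kB itself induces, which rose by 2.24 (adjusted p = 0.00034) and 1.41 (adjusted p = 0.0075) at 4 h on day 4 and day 11, and NFKB1, which rose by 1.05 and 1.52. The 24 h change of 7 of the 14 genes was larger on day 11, against 10.6% of all probe sets.

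Some neutrophil markers rose after PGF2α, with more calls on day 11. Of 34 neutrophil markers listed without the members themselves, 18 were measured: 3 rose at 4 h on day 4, 8 at 4 h on day 11, 0 at 24 h on day 4 and 7 at 24 h on day 11, and 0 fell. The shares of all probe sets that rose were 2.69% and 8.02% at 4 h on day 4 and day 11, and 14.3% at 24 h on day 11. The 4 h change differed between the days for 0 of the 18 markers, against 1.10% of all probe sets. The day 11 risers at 4 h included NCF1 (1.78) of the neutrophil oxidase, the protease MMP9 (1.74) and the receptors TREM1 (1.71) and CXCR1 (1.27). The list mean ran from 5.18 to 5.49 at 0 h on day 11, from 5.80 to 6.37 at 4 h and from 5.90 to 6.48 at 24 h, and on day 4 from 4.97 to 5.23, from 5.33 to 6.17 and from 4.90 to 5.92. The granule enzymes MPO and ELANE, whose RNA is made mainly in bone marrow precursors, lay between percentiles 14.4 and 28.2 of all probe sets in all 6 groups and were not called at 4 or 24 h. CXCR1 is in both this list and the chemokine list, and macrophages also express ITGB2, NCF1, NCF4 and CYBB.

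Macrophage markers rose later. Of 20 listed, 13 were measured, and 1 rose at 4 h on day 4, 3 at 4 h on day 11, 0 at 24 h on day 4 and 10 at 24 h on day 11, with a list median of 1.73 in that comparison, the last. For all probe sets the shares that rose were 2.69% and 8.02% at 4 h on day 4 and day 11. At 24 h on day 11 the share was 14.3%. TYROBP, an adaptor of myeloid receptors, rose there by 2.61, CD14 by 2.60, the antibody receptor FCGR1A by 2.37 and the scavenger receptor MSR1 by 2.27. CD14 is also in the receptor list above. The list mean ran from 9.79 to 10.47 at 24 h on day 11, against 8.04 to 8.63 at 0 h. Before PGF2α the list was already higher on day 11 than on day 4, with a median difference of 1.07 against -0.02 over all named genes.

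Over the 10 animals at 4 h the deviations of S100A12 followed the neutrophil list mean (r = 0.91, rho 0.83, 0.73 without the 2 farthest animals) and the platelet list mean (r = 0.91, rho 0.85, 0.78 without them). The r was 0.78 (rho 0.54, 0.04 without them) with the erythroid list and 0.25 (rho 0.32, 0.04 without them) with the macrophage list. At 24 h its r was 0.92 with the neutrophil list, 0.90 with the macrophage list and 0.71 with the platelet list (rho 0.88, 0.95 and 0.73). For CXCL8 the r with the neutrophil list was 0.33 (rho 0.16) at 4 h, and 0.08 without the 2 farthest animals. At 24 h it was 0.36 (rho 0.39), and 0.77 without the 2 farthest. These lists share cells and arrays, and the part of cell numbers in the members' changes was not tested.

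Platelet, erythroid and eosinophil markers were also read, though few were measured and many were dim. Of 17 platelet markers 5 were measured, and SELP (2.72 at 4 h on day 11) and ITGB3 (1.80 at 24 h on day 11) rose, both also made by cells other than platelets. ITGA2B, the platelet integrin subunit, lay between percentiles 24.5 and 26.2 in every group and was not called at 4 or 24 h. Over the 10 animals at 24 h, PF4 had an r of 0.13 (rho 0.08) with the platelet list mean, -0.08 with the macrophage list mean and 0.88 with CXCL8. Without the 2 farthest animals these r values were 0.41, 0.15 and 0.81. With the neutrophil list mean the r of PF4 at 24 h was 0.18, and 0.58 without the 2 farthest. Of 13 erythroid markers 7 were measured and 0 were called at 4 or 24 h against 0 h on either day, with list means of 3.62 to 4.34 on all arrays. Of 10 eosinophil markers 3 were measured, with 0 called at those times and list means of 3.57 to 4.71. Both ranges lie below the array medians of 6.01 to 6.16, so 0 calls in these lists say little about blood or eosinophil content. Among 14 endothelial markers 1 was higher and 7 were lower at 24 h on day 11, and of 9 luteal steroidogenic markers 8 were lower, by 2.32 for HSD3B1, which makes progesterone. The list medians there were -0.26 and -0.75, against -0.01 over all named genes. The share of all probe sets that was lower there is not given here.

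**Figure D4:**
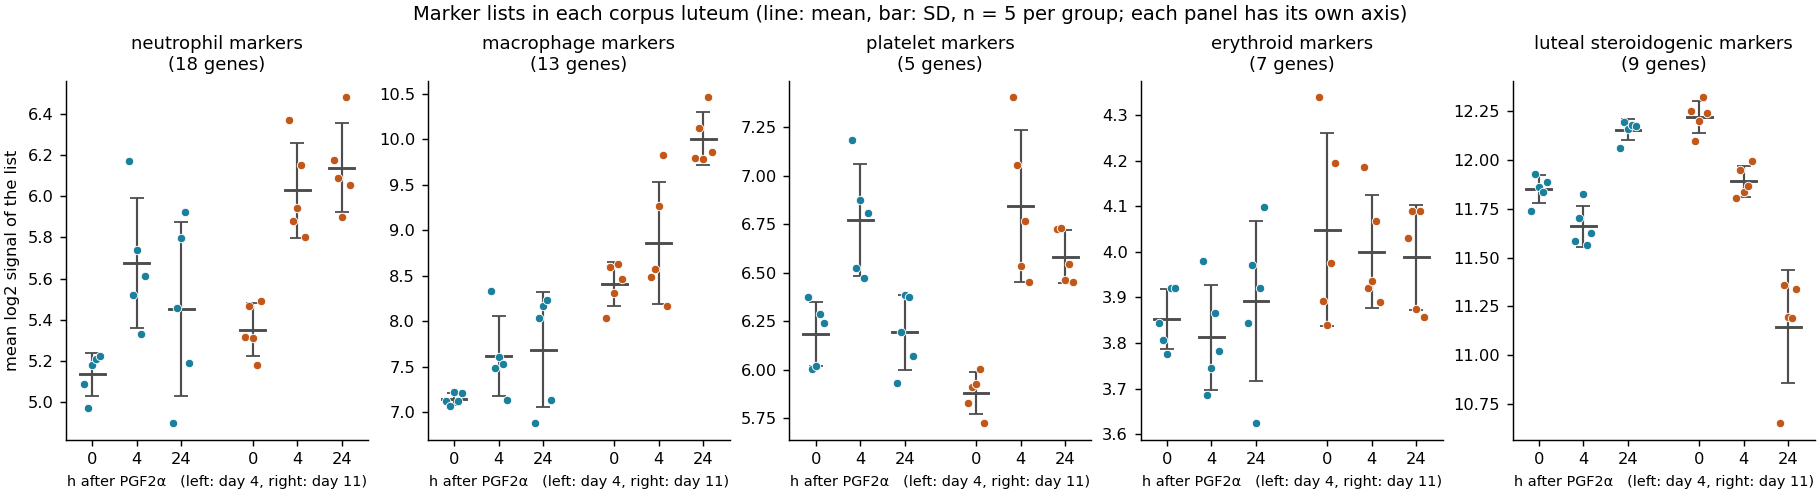
Mean log2 signal of the measured genes of 5 marker lists in each corpus luteum (points: animals; line: mean; bar: SD, n = 5), each panel with its own axis. Neutrophil markers were high at 4 and 24 h on day 11, macrophage markers highest at 24 h on day 11 (9.79 to 10.47), and luteal steroidogenic markers lowest there (10.65 to 11.36).

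The genes most like each member over all 30 arrays, by Pearson r, were as follows. For CXCL8 they were CXCL2 (0.94), IL1A (0.92) and the leukocyte adhesion molecule ICAM1 (0.91), for CXCL2 they were CXCL8, IL6 (0.93) and IL1A (0.92), and for CXCL5 they were IL1B (0.88), CXCL8 (0.87) and tissue factor F3 (0.87). PF4 was most like TOX (0.88), RETREG1 (0.87) and RAB31 (0.85), none of them chemokines. S100A8 was most like S100A9 (0.84), TREM1 (0.83) and S100A12 (0.81), and S100A9 like S100A8, STEAP3 (0.81) and PDXK (0.79). S100A12 was most like S100A4 (0.96), the hyaluronan receptor CD44 (0.95) and EFHD2 (0.95). These correlations include the differences between the 6 groups and describe shared patterns over these arrays.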

How the data were processed

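Signals were deposited on a log2 scale, 1 value per probe set and array, made by the authors with RMA (background correction, normalization between arrays and probe summary) per the submitters' processing notes. Which arrays were normalized together is not given in the sources used here. They were used as deposited, without 112 control probe sets. All 30 arrays were fitted with a mean per group in limma 3.58.1 (R 4.3.3) with default eBayes (24 residual degrees of freedom) and 11 contrasts, and p-values were adjusted over 24016 probe sets. The probe set with the highest mean represented a gene in counts. The test was tried on simulated data. Same-numbered arrays of day 4 at 0 h and 4 h deviated together in all 5 pairs (correlations 0.15 to 0.21), by the data and not by a label, and fits with the replicate number as a block were run for every comparison.

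The members, the gene lists and the alternatives were chosen with earlier results of these data known. All probe sets of the members are reported. From each list the text took up to 4 called genes with the largest change per comparison, and for likeness the 3 named genes with the highest r. MPO, ELANE, ITGA2B and the values of single arrays were chosen after their values were seen. List symbols were matched through the platform annotation and RefSeq.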

Additional observations from a re-analysis of the deposited data

Results flagged for a closer look

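In groups of 5 arrays, the highest or lowest array was compared with the rest by Dixon's gap ratio (above 0.71). Of 48 groups of member values 3 exceeded it, where chance gives about 1 in 20. CXCL8 at 0 h on day 11 was 5.92 in replicate 5, against 3.99 to 4.54 in the other 4. The second S100A9 probe set at 4 h on day 11 was 9.57 in replicate 1, against 5.95 to 7.0. S100A12 at 0 h on day 4 was 5.82 in replicate 5, against 6.67 to 6.87.

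The change from 0 to 24 h differed between the days for 6 of the 7 genes by the interaction test in limma, always with the larger change on day 11. The differences were 3.40 for CXCL8, 3.54 for CXCL2, 2.26 for CXCL5, 3.35 for PF4, 5.52 for S100A12, and 1.85 and 3.87 on the probe sets of S100A9.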

How the results depend on the processing

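Of 88 member differences, 88 kept their direction and their side of the threshold after quantile normalization, 87 after subtraction of array medians and 87 without the dimmest 30% of probe sets. It was 86 with a variance trend and robust moderation, 77 with array weights, 80 in fits to the compared arrays alone, 75 without both arrays that stood apart, and all 77 with the mean of a gene's probe sets. The causes of the changes were not tested.

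The count of genes that rose at 4 h on day 4 was 2 to 5 when single arrays were left out, with 2 without 4 h replicate 1 and 5 without 0 h replicate 2. The count lower on day 11 than on day 4 at 4 h was 1 to 3 in those fits, with 2 without day 11, 4 h replicate 1 or 2, 3 without day 4, 4 h replicate 4, and 2 without both arrays that stood apart. Changes of sign touched no called difference. CXCL8 from 4 to 24 h on day 11 was -0.0175 with array medians subtracted. S100A8 between the days at 4 h was -0.043 with array weights and -0.22 without both arrays, and the 4 h interaction of CXCL5 was -0.11 and -0.31.

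Leaving out single arrays gave these ranges across 0. For CXCL8 they were -0.43 to 0.37 (day 11, 24 h against 4 h), -0.83 to 0.30 (4 h interaction) and -0.26 to 0.11 (day 4, 24 h against 0 h). For CXCL2 it was -0.31 to 1.08 (day 11, 24 h against 4 h), for CXCL5 -0.38 to 0.66 (4 h interaction) and for PF4 -0.33 to 0.17 (day 4, 24 h against 0 h). For S100A8 they were -0.51 to 0.19 and -0.22 to 0.51 (between the days at 0 h and 4 h), for S100A9's second probe set -0.44 to 0.12 (day 4, 24 h against 0 h) and for S100A12 -0.67 to 0.081 (between the days at 4 h).

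Of 75 same-numbered pairs of arrays 24 correlated above 0.1 (range -0.20 to 0.26), and 18 were each other's best match. Between 0 h and 4 h it was 5 of 5 pairs on day 4 (1 best match) and 4 of 5 on day 11 (4 best matches), and elsewhere at most 3 of 5 pairs did. With the replicate number as a block, 85 of 88 differences kept their call. CXCL5 at 24 h on day 11 became called against 0 h (1.40, adjusted p = 0.046) and against day 4 (1.37, 0.044), and S100A9's second probe set lost its call against day 4 at 24 h (1.13, 0.054). The counts of calls in all comparisons apart from these 2 did not change, and those of the 2 became 7 and 6. With the block in a fit to the 0 h and 4 h arrays of a day alone, chosen after seeing the data, the counts at 4 h were 4 on day 4 and 5 on day 11, where CXCL2 was lost (2.71, adjusted p = 0.086).

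Signals near the low end of the array, above all those of CXCL2 at 0 h, limit the precision of fold sizes.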
